A study of Mus musculus with 24 samples.

Results

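Natural killer T (NKT) cells of the mouse liver carry both a T cell receptor and the NK cell receptor NK1.1. Part of them carry neither of the coreceptors CD4 and CD8. The double negative cells described here were chosen by transcripts alone, and were also low in those of 4 Ly49 receptors. A cell was counted as a double negative Ly49 negative (DN Ly49-) cell when Cd8a, Cd4, S1pr1 and the sum of Klra1, Klra5, Klra7 and Klra9 each had a value under 0.5. The value is the number of unique molecular identifiers (UMIs) of a gene per 10000 UMIs of the cell, and only cells with at least 10000 UMIs were considered. In all, 466 of 1382 such cells met the rule, out of 1735 cells in the matrix. The 353 cells under 10000 UMIs were left out.

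The cells were NK1.1+CD3e+ leukocytes sorted from perfused livers of mice aged 8 to 10 weeks, picked by hand and sequenced one by one. They came from C57BL/6 mice as wild type (WT) and from a pair of deficient lines. Jα18-deficient mice lack a receptor segment that type I NKT cells need, and CD1d-deficient mice lack the lipid-presenting molecule on which both type I and type II cells depend. The labels list 8 libraries per genotype, but the cell names give only the genotype, so each genotype formed 1 pool and no test was made between genotypes. Values given as a run of 3 stand for the WT, then the Jα18-deficient, then the CD1d-deficient pool. The number and sex of the mice behind each library are not given in the sources used here. The CD1d-deficient line still carries Cd1d2, per the study's discussion.

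In WT liver many NKT cells use an invariant receptor that recognises lipids on CD1d, and they are known for prompt release of helper cytokines. The Ly49 receptors, encoded by the Klra genes, are lectin-like receptors of NK cells that bind MHC class I molecules. Tyrobp and Fcer1g encode small adaptor proteins with an activation motif (ITAM) that pass on the signals of NK cell receptors. S1pr1 encodes the receptor that leads lymphocytes out of tissues into blood and lymph.

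The Ly49 genes resemble each other closely, which limits how well counts can be told apart between them. All 4 genes of the sum, and Klra3, which was not in the rule, lie on the minus strand of chromosome 6 in NCBIM37 (mm9). Klra9 spans 130128771 to 130285823 and overlaps Klra3, from 130273307 to 130287592. The coding sequences of Klra9 and Klra3 were identical at 95.9% of aligned bases, those of Klra5 and Klra3 at 89.1%, and those of Klra1 and Klra9 at 79.0%. The first 60 coding bases are shown because they let a reader see this likeness. They come from the gencode annotation of NCBIM37, and capitals mark each base that differs from Klra1 at the same position.
Klra1: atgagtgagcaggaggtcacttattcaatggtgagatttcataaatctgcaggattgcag
Klra5: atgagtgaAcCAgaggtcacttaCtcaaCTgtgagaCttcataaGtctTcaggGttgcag
Klra7: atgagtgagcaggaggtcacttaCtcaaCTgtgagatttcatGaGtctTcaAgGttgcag
Klra9: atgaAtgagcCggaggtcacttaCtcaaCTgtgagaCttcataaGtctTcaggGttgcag
Klra3: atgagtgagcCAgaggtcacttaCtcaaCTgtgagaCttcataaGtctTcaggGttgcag
Over these bases Klra5 differed from Klra1 at 10 positions, Klra7 at 8, and Klra9 and Klra3 at 9 each. Klra3 itself was present in DN Ly49- cells. Its level was 25.3 UMIs per 1000000 UMIs of the pool's cells (CPM) in WT, 84.8 CPM in Jα18-deficient and 3.15 CPM in CD1d-deficient DN Ly49- cells. The other cells had 61.9, 115 and 66.6 CPM. Ly49 negative therefore means a value under the threshold for the 4 genes of the sum, not the absence of Ly49 transcripts.

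DN Ly49- cells made up about 1 in 2 of the eligible WT cells and a smaller share in both deficient pools. There were 272 among 523 WT cells, or 52.0% (exact Clopper-Pearson 95% interval 47.6 to 56.4%). The Jα18-deficient pool held 158 among 632, or 25% (21.7 to 28.6%), and the CD1d-deficient pool 36 among 227, or 15.9% (11.4 to 21.3%). These intervals and those below cover counting error only, and the spread between mice could not be measured.

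**Figure D1:**
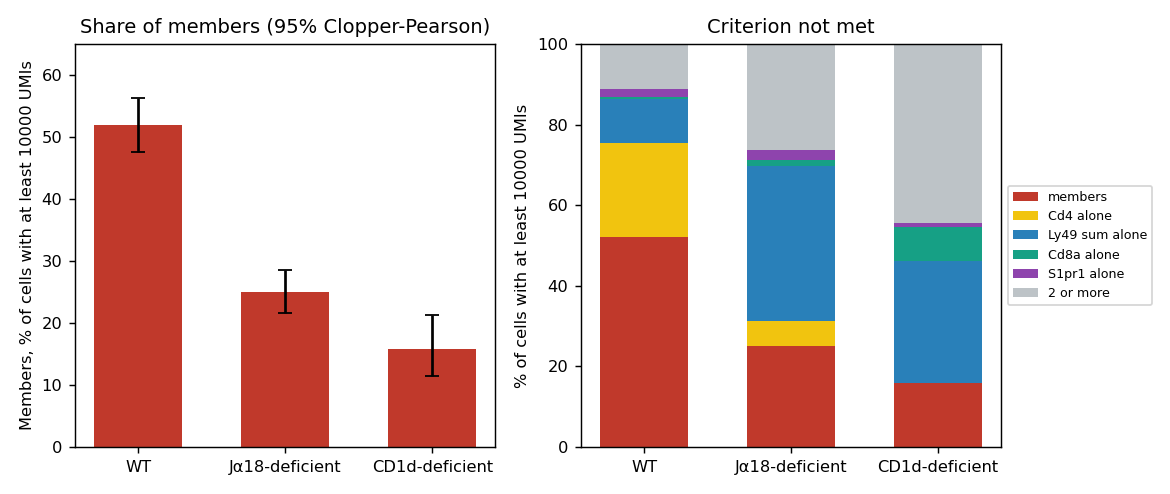
Left, DN Ly49- cells as a percentage of cells with at least 10000 UMIs in each pool, with exact 95% intervals (52.0% in WT, 25% in Jα18-deficient and 15.9% in CD1d-deficient). Right, the same cells divided by the criterion they did not meet, where cells that failed only the Ly49 sum are the largest class of the Jα18-deficient pool (243 cells) and cells that failed 2 or more criteria that of the CD1d-deficient pool (101 cells).

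The cells excluded by the rule differed between the pools. In WT, Cd4 alone set 123 cells apart, the Ly49 sum alone 56, S1pr1 alone 11 and Cd8a alone 3, while 58 failed 2 or more criteria. In the Jα18-deficient pool the Ly49 sum alone set 243 cells apart and Cd4 alone 40. In the CD1d-deficient pool these counts were 69 and 0, and Cd8a alone set 19 apart. The other cells were therefore 49.0% Cd4-only cells in WT, 8.44% in the Jα18-deficient and 0% in the CD1d-deficient pool.

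The threshold cut a continuous range. Of the 466 DN Ly49- cells, 182 had no UMI of any of the 7 genes of the rule and 284 had at least 1. In 216 that UMI, or part of them, came from the Ly49 genes. The highest Ly49 sum among DN Ly49- cells was 0.498 in WT, 0.494 in Jα18-deficient and 0.465 in CD1d-deficient cells, and the lowest value outside the threshold was 0.513, 0.5004 and 0.528. The median Ly49 sum of DN Ly49- cells was 0 in WT, 0.245 in the Jα18-deficient and 0.131 in the CD1d-deficient pool. Cells beyond the threshold had a median of 9.79, 7.53 and 13.2 UMIs per 10000. For Cd8a this median was 10.1, 5.75 and 6.82, and for Cd4 only 2.04, 2.06 and 0.710. Double negative therefore means transcript values under the threshold, not the absence of CD4 or CD8 protein.

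Depth moved with membership. In a cell of under 20000 UMIs, 1 UMI of a gene of the rule already exceeded the threshold. The median DN Ly49- cell had 52126 UMIs in WT, 67874 in the Jα18-deficient and 69737 in the CD1d-deficient pool. The other cells had medians of 51389, 56977 and 33505 UMIs. Between 10000 and 20000 UMIs the share of DN Ly49- cells was 37.8% in WT, 11.1% in the Jα18-deficient and 6.56% in the CD1d-deficient pool, and from 80000 UMIs it was 55.6%, 27.5% and 25.9%. The order of the pools was the same in both ranges, and the intervals of the deficient pools overlapped in both (5.46 to 19.5% and 1.82 to 15.9%, then 22 to 33.5% and 15 to 39.7%).

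The T cell label was checked first. When each cell was thinned at random to 10000 UMIs, Cd3d, a chain of the T cell receptor complex, had a UMI in 96.7%, 98.1% and 94.4% of DN Ly49- cells. Lck, the kinase that starts receptor signalling, was found in 96.3%, 96.2% and 97.2% of them, and Klrb1c, which encodes NK1.1, in 81.2%, 89.2% and 77.8%. The unthinned share for Cd3d was 99.6%, 99.4% and 100%. Zbtb16, which encodes the transcription factor that directs NKT cell development, was sparse, with a UMI in 11.8%, 10.8% and 5.56% of thinned DN Ly49- cells and in 12.7%, 6.96% and 3.66% of the others. Rows for T cell receptor gene segments were not analysed here, so receptor type was not examined.

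The gene deleted in CD1d-deficient mice was examined in every pool. Cd1d1 had 517 UMIs in WT DN Ly49- cells, 232 in Jα18-deficient ones and 0 in CD1d-deficient ones, which allows up to 1.05 CPM.

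Markers of other cells were examined next. The 8 B cell genes summed to 4.31, 2.62 and 5.61 CPM in DN Ly49- cells, and the 14 hepatocyte genes to 52.5, 7.29 and 18.9 CPM. Of 10 gamma delta T cell genes only 6 were in the matrix and 2 were tested, so the list says little about such cells. The 6 genes summed to 4.71, 27.3 and 11.2 CPM in DN Ly49- cells, against 12.3, 13.5 and 8.45 CPM in the others. Foxp3 of regulatory T cells and Il17a of type 17 cells had 0 UMIs in DN Ly49- cells of every pool. Other genes of these lists were present: the 6 regulatory T cell genes summed to 500, 791 and 749 CPM in DN Ly49- cells against 493, 520 and 457 CPM in the others, and the 12 type 17 genes to 409, 881 and 408 CPM against 252, 336 and 194 CPM. Tmem176b, whose levels are given below, made up much of the type 17 sums in DN Ly49- cells, and 4 of the 12 genes were tested. The 17 myeloid genes summed to 372, 226 and 1041 CPM in DN Ly49- cells and to 325, 309 and 1416 CPM in the other cells. Of the 14 of them tested by edgeR, 8 were over 2-fold higher and 0 over 2-fold lower in CD1d-deficient than in WT DN Ly49- cells. Over the 10937 genes tested, 1651 were higher and 3197 lower. The lysozyme transcripts Lyz2 and Lyz1 were at 438 and 239 CPM there. Lyz2 had a UMI in 94.4% of thinned DN Ly49- cells and in 91.1% of the others of that pool. Among genes that define macrophages, Adgre1 and the C1q genes were at 0 to 0.701 CPM in these DN Ly49- cells, and Csf1r and Cd68 at 8.76 and 10.2 CPM. The part of myeloid RNA in the results was not tested.

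DN Ly49- cells were next compared with all other cells to ask which genes outside the rule set them apart. They had lower levels of the adaptors Tyrobp and Fcer1g, the surface protein Cd7, the protease Gzmb, the membrane-binding protein Anxa2 and the chemokine Ccl5, all but Anxa2 being transcripts that NK cells are known for. All 6 were lower in each of the 3 pools. No gene was called higher in DN Ly49- cells. UMIs were summed per pool and class and tested with edgeR's quasi-likelihood test, in a model that held a term for the pool. The 3 pools, each of another genotype, served as replicates.

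Of 10937 genes tested outside the rule, 6 (0.0549%) were called lower and 0 (0%) higher, at a Benjamini-Hochberg adjusted p under 0.05 and an absolute natural log fold change over 0.25. At an unadjusted p under 0.05 these counts were 255 and 222. The genes took no part in choosing the cells, but they were read from the same cells as those of the rule. DESeq2 called 45 lower and 17 higher. The edgeR count depended on the pools: it was 26 lower and 6 higher without the CD1d-deficient pool, 13 and 7 without the Jα18-deficient pool, and 10 and 5 without WT.

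Tyrobp was at 70.4 CPM in WT, 243 CPM in Jα18-deficient and 1060 CPM in CD1d-deficient DN Ly49- cells, against 758, 1507 and 2938 CPM in the other cells. The levels of the CD1d-deficient DN Ly49- cells thus exceeded those of the other WT cells, while within each pool the order was the same. The log2 fold change was -2.44 ± 0.31 (SE; edgeR adjusted p = 0.0129). Fcer1g was at 151, 269 and 1091 CPM, against 841, 1774 and 3201 CPM (log2 fold change -2.18 ± 0.21, edgeR adjusted p = 0.0011).

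Cd7, an immunoglobulin family protein of T and NK cells, was at 221, 525 and 1944 CPM in DN Ly49- cells and at 1285, 2436 and 4470 CPM in the others (-1.91 ± 0.22 on the log2 scale, edgeR adjusted p = 0.00656). The gap in Tyrobp, Fcer1g and Cd7 was smallest in the CD1d-deficient pool, at 2.58-fold, 2.74-fold and 2.14-fold, against 10.6-fold, 5.54-fold and 5.76-fold in WT. Whether the gap differed between pools was not tested.

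Gzmb, a granule protease that triggers death of target cells, was at 386, 423 and 1048 CPM against 1085, 1136 and 3233 CPM. Its gap was of similar size in every pool, 2.80-fold in WT, 2.46-fold in Jα18-deficient and 2.87-fold in CD1d-deficient cells (edgeR adjusted p = 0.000332). Anxa2, which binds membranes in the presence of calcium, was at 71.8, 203 and 254 CPM against 184, 521 and 677 CPM, or 2.53-fold, 2.35-fold and 2.48-fold lower (edgeR adjusted p = 0.0159). Ccl5, a chemokine that attracts T cells, was the most abundant of the 6 at 3186, 5204 and 11518 CPM, against 6243, 11415 and 21375 CPM. It was 1.95-fold, 2.01-fold and 1.73-fold lower (edgeR adjusted p = 0.000219). With the Cd4-only cells left out of the other cells, Tyrobp (edgeR adjusted p = 0.0737) and Cd7 (0.0557) were not called, and with limma on the mean over cells Gzmb was not (limma adjusted p = 0.323). Without the pool term none of the 6 was called.

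**Figure D2:**
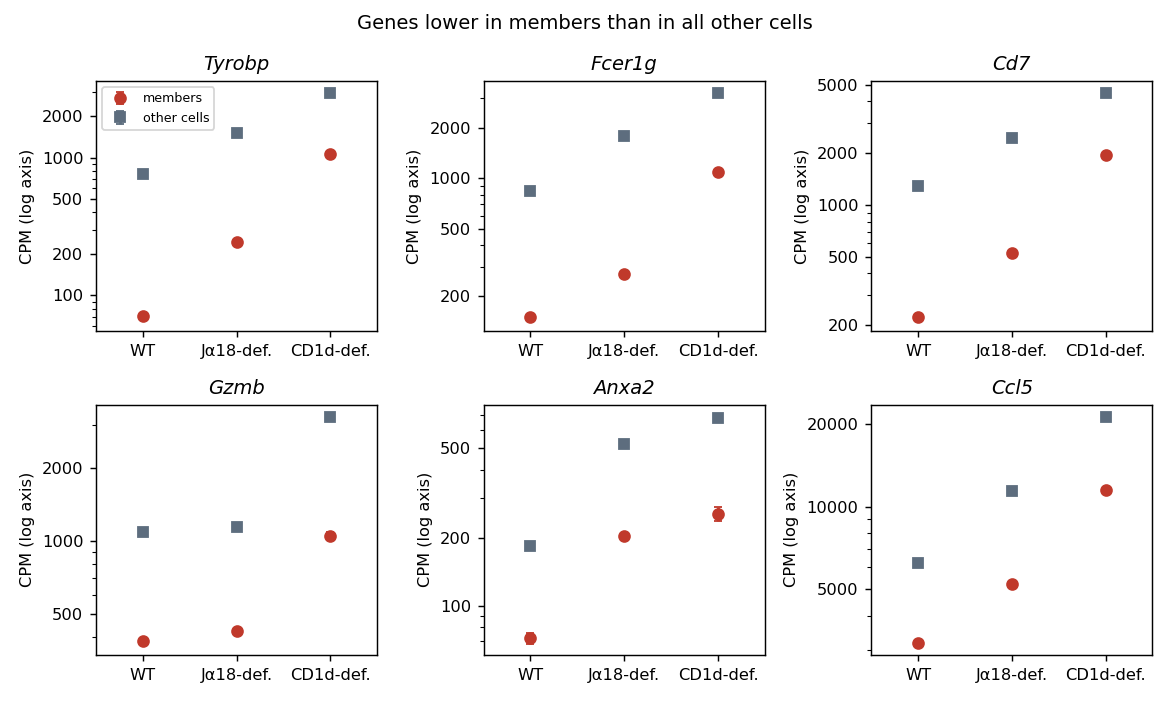
Level of the 6 genes called lower in DN Ly49- cells, in CPM on a log axis, for members (circles) and all other cells (squares) of each pool, with exact Poisson 95% intervals that are mostly smaller than the symbols. In every panel the circle lies below the square of the same pool, and both are lowest in WT and highest in CD1d-deficient cells (Tyrobp at 70.4 and 1060 CPM in members).

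The positions of these genes in NCBIM37 are chromosome 7 from 31198807 to 31202596 for Tyrobp, chromosome 1 from 173159703 to 173164496 for Fcer1g and chromosome 11 from 120898061 to 120900732 for Cd7. Gzmb lies on chromosome 14 from 56877693 to 56881097, Anxa2 on chromosome 9 from 69301427 to 69339602 and Ccl5 on chromosome 11 from 83339280 to 83344020.

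Further NK genes were lower without passing the test. In the NK cell list 3 of 12 tested genes were called lower and 0 higher, and 8 were lower in all 3 pools, against 14.9% of all genes. The list's median log2 fold change was -2.04, beside -0.08 over all genes. Gzma, a granule protease, was at 108, 168 and 1773 CPM against 1098, 1714 and 3730 CPM (log2 fold change -2.55 ± 0.39, edgeR adjusted p = 0.0504). Ncr1, which encodes the activating receptor NKp46, was at 9.93, 9.34 and 176 CPM against 57.3, 187 and 280 CPM (edgeR adjusted p = 0.54).

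Among chemokines, Ccl3 was at 8.97, 4.36 and 6.31 CPM in DN Ly49- cells and at 40.6, 82.2 and 161 CPM in the others (edgeR adjusted p = 0.052). Ccl4 was at 8.06, 20.4 and 234 CPM against 174, 220 and 524 CPM, and 1 cell gave 76.7% of its UMIs in the CD1d-deficient DN Ly49- cells. Both encode attractants of inflammatory cells. In the list of cytokines and chemokines 1 of 17 tested genes, Ccl5, was called lower and 0 higher.

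The killer lectin-like receptors outside the rule were not called by edgeR, at 0 of 17 in either direction, and 6 were lower and 0 higher at an unadjusted p under 0.05. Klrd1, the partner chain of the NKG receptors, was at 524, 712 and 888 CPM against 876, 1157 and 1812 CPM (edgeR adjusted p = 0.0969). Klre1 was at 204, 359 and 673 CPM against 428, 740 and 1209 CPM (edgeR adjusted p = 0.0582). Klrc1, which encodes an NKG receptor chain, showed almost no gap, at 420, 879 and 1142 CPM against 467, 923 and 1414 CPM.

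Of 11 granule genes tested by edgeR, 1 (Gzmb) was called lower and 0 higher, and 3 were lower and 0 higher at an unadjusted p under 0.05. In all 3 pools 6 were lower and 0 higher, against 14.9% and 11.6% of all genes, and the list's median log2 fold change was -0.27. The size of the difference varied between members. Nkg7, a granule membrane protein, was at 3370, 4483 and 5055 CPM against 3778, 4824 and 5401 CPM, with a log2 fold change of -0.05 ± 0.08. Ctsw, a granule protease of the cathepsin family, had one of -0.08 ± 0.10. Prf1, the pore protein perforin, was at 31.5, 22.5 and 61.0 CPM against 49.1, 49.7 and 114 CPM without passing the test.

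DN Ly49- cells were not uniform in the adaptor genes. The summed value of Tyrobp and Fcer1g had a median of 0.748 UMIs per 10000 in WT, 2.14 in Jα18-deficient and 3.73 in CD1d-deficient DN Ly49- cells. The other cells had medians of 1.12, 12.7 and 57.1. A tail of DN Ly49- cells reached 10 or more: 11 of 272 in WT (4.04%, exact 95% interval 2.04 to 7.12%), 17 of 158 in Jα18-deficient (10.8%, 6.39 to 16.7%) and 11 of 36 in CD1d-deficient mice (30.6%, 16.3 to 48.1%). In the other cells the shares were 21.5%, 53.4% and 82.2%. The limit of 10 was chosen after the values were seen and marks a range, not a cell type, with 4, 6 and 3 DN Ly49- cells lying within 2 of it.

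**Figure D3:**
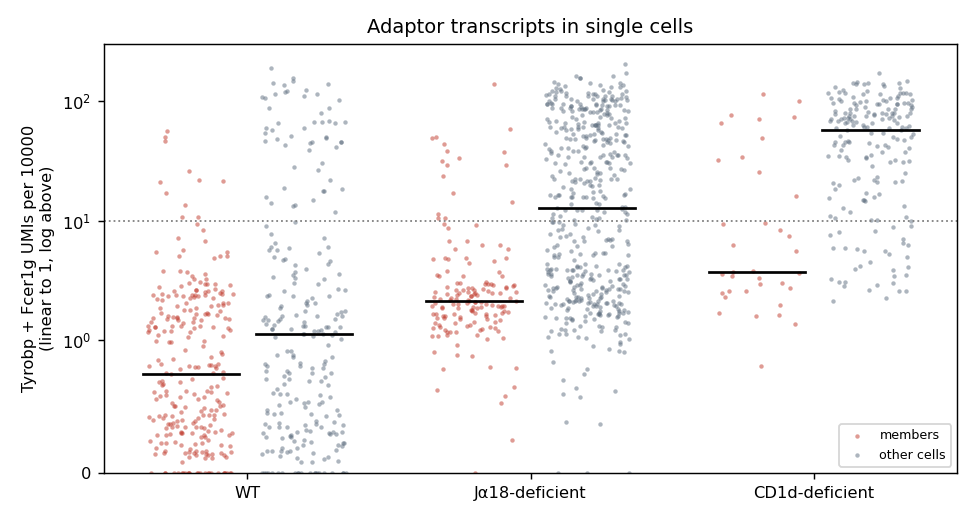
Summed Tyrobp and Fcer1g UMIs per 10000 UMIs in each cell, on an axis that is linear up to 1 and logarithmic above, for members and other cells of each pool. Black bars are medians and the dotted line is at 10, which 11, 17 and 11 members reached in the WT, Jα18-deficient and CD1d-deficient pools.

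These cells carried much of the signal of several genes, most of all in the CD1d-deficient pool. In the CD1d-deficient pool the 11 cells gave 31.8% of the UMIs of DN Ly49- cells but 95.1% of those of Gzma, 92.5% of Cd7, 97.8% of Ncr1 and 79.9% of Anxa2. In WT the 11 cells gave 4.72% of all UMIs, 71.2% of those of Gzma and 29.3% of Cd7. The share was smaller for Ccl5, at 64.8% in CD1d-deficient and 11.5% in WT cells, and for Gzmb, at 56.8% and 5.30%. In the Jα18-deficient pool the 17 cells gave 7.44% of all UMIs and 67.4% of those of Gzma, but smaller shares of Cd7 (20.7%), Ncr1 (14%) and Anxa2 (12.8%). Among the remaining DN Ly49- cells Cd7 was at 164 CPM in WT, 450 CPM in Jα18-deficient and 214 CPM in CD1d-deficient cells, and Ccl5 at 2958, 4646 and 5949 CPM.

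Il4, a helper cytokine of NKT cells, went the other way in the CD1d-deficient pool, where 0 of the 11 cells and 6 of the other 25 had a UMI after thinning. In WT it was found in 3 of 11 and in 108 of the other 261. Cd3d had a UMI in 9 of the 11 CD1d-deficient cells and in all 25 of the rest. No test was made between these cells, since they were chosen by their levels.

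The next question was whether the differences were also seen against cells that failed a single criterion. Cells that failed only Cd4, only the Ly49 sum or only S1pr1 were compared with DN Ly49- cells in 1 fit, which tested 9986 genes outside the rule. The cells that failed only Cd8a (3, 9 and 19) were not compared, so that criterion was not examined. Gzma, Tyrobp, Cd7 and Anxa2 were lower in DN Ly49- cells than in the cells that failed the Ly49 sum, and none of them was called against the Cd4-only or the S1pr1-only cells.

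Against the Ly49-only cells, 4 genes (0.0401%) were called lower and 1 (0.01%) higher by edgeR. Gzma was at 3452, 1666 and 4021 CPM in the Ly49-only cells of the WT, Jα18-deficient and CD1d-deficient pools, and was lower in DN Ly49- cells by -3.27 ± 0.52 on the log2 scale (edgeR adjusted p = 0.00911). Tyrobp changed by -3.25 ± 0.56 (edgeR adjusted p = 0.0152), Cd7 by -2.54 ± 0.43 (edgeR adjusted p = 0.0136) and Anxa2 by -2.02 ± 0.33 (edgeR adjusted p = 0.012). Fcer1g, Gzmb and Ccl5 had log2 fold changes of -2.93, -1.80 and -1.29 and were not called, with edgeR adjusted p of 0.158, 0.0611 and 0.126.

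Tmem176b, a membrane protein of intracellular vesicles, was the gene called higher. It was at 243, 525 and 250 CPM in DN Ly49- cells and at 86.3, 168 and 76.0 CPM in Ly49-only cells (log2 fold change 1.64 ± 0.30, edgeR adjusted p = 0.0281). Without the CD1d-deficient pool 0 genes were called higher, and 11 were without each of the other pools. Tmem176b was also higher than in all other cells in each pool, but not called there (log2 fold change 1.19 ± 0.22, edgeR adjusted p = 0.152). The gene lies on chromosome 6 from 48783810 to 48791373.

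Against the Cd4-only cells, which were present in WT and the Jα18-deficient pool, 0 of 9986 genes (0%) were called in either direction by edgeR. At an unadjusted p under 0.05 there were 83 higher and 62 lower, and DESeq2 called 15 and 1. Tyrobp was at 51.5 and 118 CPM in Cd4-only cells of WT and Jα18-deficient mice, against 70.4 and 243 CPM in DN Ly49- cells (log2 fold change 1.16 ± 0.60, not called). Gzma was at 26.0 and 50.1 CPM in Cd4-only cells, with a log2 fold change of 2.25 ± 0.58 that was not called. Tmem176b was at 205 and 563 CPM and differed by -0.04 ± 0.34 on the log2 scale.

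The S1pr1-only cells were few, 11 in WT and 15 in the Jα18-deficient pool, and 1 gene (0.01%) was called higher and 0 (0%) lower in DN Ly49- cells by edgeR. This was Sugt1, a cochaperone, at 101 and 140 CPM in DN Ly49- cells and 4.13 and 3.65 CPM in S1pr1-only cells (edgeR adjusted p = 0.00545). The counts of this comparison were the least stable, with DESeq2 calling 273 higher and 91 lower, and edgeR calling 99 higher and 145 lower without WT and 49 and 12 without the Jα18-deficient pool. Leaving out either pool left the S1pr1-only class with 1 sum, which was assumed to vary like the sums of the other classes.

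**Figure D4:**
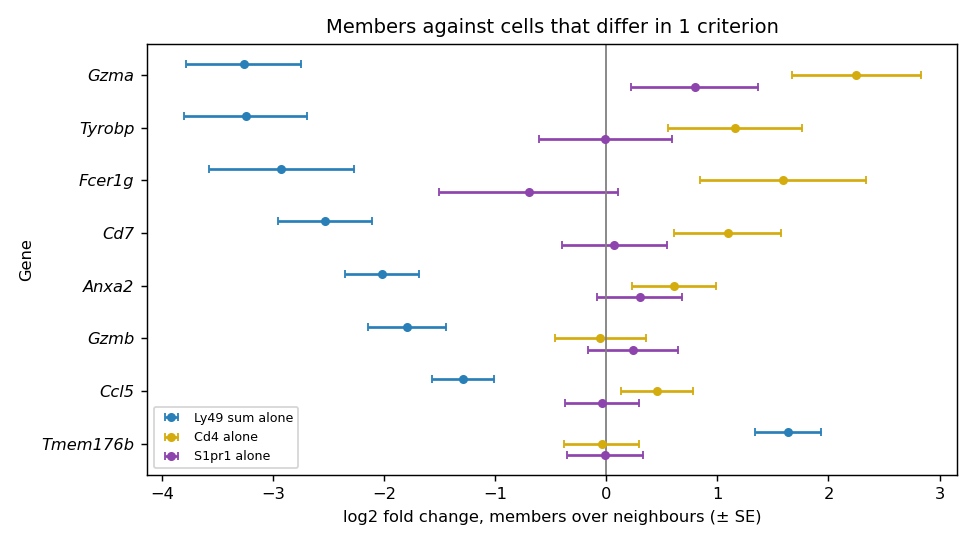
Log2 fold change, with its SE, of members over the cells that failed only the Ly49 sum, only Cd4 or only S1pr1, for 8 genes. Gzma, Tyrobp, Cd7 and Anxa2 were called against the Ly49-only cells (from -3.27 to -2.02), Tmem176b was called in the other direction (1.64), and none of the 8 was called against the other two classes.

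Genes of the NKT program were mostly higher in DN Ly49- cells than in all other cells, without any passing the test. Of 14 tested by edgeR, 0 were called, with 4 higher and 1 lower at an unadjusted p under 0.05. In all 3 pools 9 were higher and 1 was lower, against 11.6% and 14.9% of all genes. The median log2 fold change was 0.60. By pool the median log2 ratio was 0.14 in WT, 0.36 in Jα18-deficient and 1.39 in CD1d-deficient cells, so it was smallest in WT. Cxcr6, the chemokine receptor by which NKT cells stay in the liver, was at 2176, 1723 and 1766 CPM in DN Ly49- cells and at 1873, 1086 and 1211 CPM in the others (0.55 ± 0.13 on the log2 scale, edgeR adjusted p = 0.454). Rora, a nuclear receptor, was at 241, 188 and 155 CPM against 149, 104 and 60.8 CPM.

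Il4 was at 157 CPM in WT and 77.3 CPM in Jα18-deficient DN Ly49- cells, close to the 141 and 74.9 CPM of the other cells. In the CD1d-deficient pool it was at 156 CPM against 4.55 CPM, but 1 cell gave 61.3% of those UMIs. By cells, Il4 had a UMI in 40.8% of thinned WT DN Ly49- cells (57.7% unthinned), 27.8% of Jα18-deficient (46.2%) and 16.7% of CD1d-deficient ones (16.7%, exact 95% interval of the thinned share 6.37 to 32.8%). The other cells had it in 35.1%, 19.2% and 2.09%, the last being the lowest share of any class and the nearest to a background level.

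Helper genes other than Il4 were also higher in DN Ly49- cells than in all other cells of each pool, without being called. Against the Cd4-only cells 0 of 9986 genes were called, and the levels of helper genes in those cells are not shown here. Cd40lg, the ligand by which T cells help B and dendritic cells, was at 255, 173 and 91.4 CPM in DN Ly49- cells and at 178, 88.1 and 34.3 CPM in the others. Icos was at 273, 205 and 393 CPM against 196, 130 and 33.9 CPM, and 72.9% of its UMIs in the CD1d-deficient DN Ly49- cells came from 1 cell. Cd28, which gives the second signal to T cells, was at 366, 230 and 158 CPM against 345, 224 and 87.0 CPM.

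At least 1 of Il4, Cd40lg, Icos and Cd28 had a UMI in 92.6%, 81.6% and 66.7% of thinned DN Ly49- cells (exact 95% intervals 88.9 to 95.5%, 74.7 to 87.3% and 49.0 to 81.4%). The other cells had it in 84.5%, 64.8% and 37.7%. The share was higher in DN Ly49- cells of each pool, and in WT the interval of the other cells reached 88.7%. The intervals treat the cells of a pool as independent, and the difference between the classes was not tested. These 4 genes were not 1 of the 22 gene lists. The 15 tested costimulatory and inhibitory receptor genes had a median log2 fold change of -0.23. Of them 2 were higher and 5 lower in all 3 pools, against 11.6% and 14.9% of all genes.

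**Figure D5:**
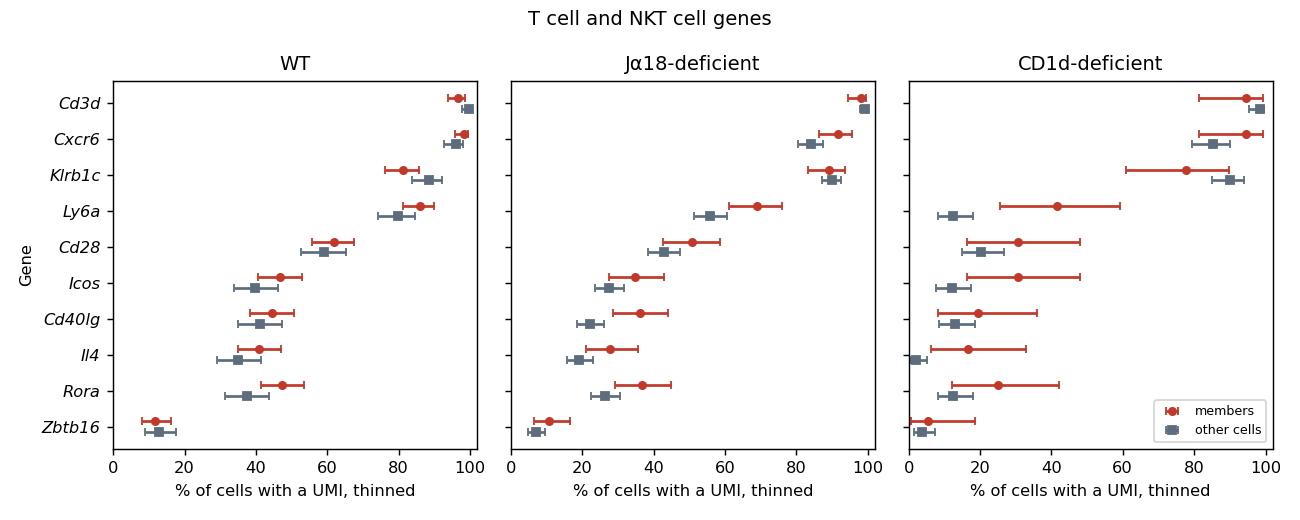
Percentage of cells with a UMI of 10 T cell and NKT cell genes after thinning to 10000 UMIs, for members (circles) and other cells (squares) of each pool, with exact 95% intervals. Cd3d is near 100% in both classes, and Ly6a shows the widest gap in the CD1d-deficient pool (41.7% of members and 12.6% of other cells).

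Some genes outside the naming rule, singled out after their values were seen, were higher in DN Ly49- cells of each pool but not called. Ly6a, which encodes a surface protein anchored in the lipid layer, was called under 9 of 15 alternatives, and Socs2 and Ifngr1 under 5 each. Ly6a was at 1035, 813 and 300 CPM against 800, 427 and 74.0 CPM (log2 fold change 1.17 ± 0.27, edgeR adjusted p = 0.454). It had a UMI in 86.0%, 69.0% and 41.7% of thinned DN Ly49- cells and in 79.7%, 55.9% and 12.6% of the others (unthinned 96.3%, 88.0% and 61.1% against 96.0%, 88.8% and 33.0%). Socs2, a feedback inhibitor of cytokine signalling, was at 368, 492 and 471 CPM against 295, 244 and 175 CPM. Ifngr1, a chain of the interferon gamma receptor, was at 547, 1002 and 1122 CPM against 411, 659 and 534 CPM.

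T cell receptor signalling genes differed little between DN Ly49- cells and the rest. Of 16 tested by edgeR, 0 were called, with 3 higher and 0 lower at an unadjusted p under 0.05, and the median log2 fold change was 0.11. Cd3d was at 1585, 1564 and 1430 CPM against 1552, 1650 and 1523 CPM. Lat, the scaffold of the receptor signal, was higher in all pools, at 829, 826 and 764 CPM against 734, 631 and 463 CPM, without being called.

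The remaining lists held 1 call, which again was Ccl5 in the type 1 effector list (1 of 12 tested lower, 0 higher). The lists of type 2 effector (6 tested), type 17 effector (4), gamma delta T cell (2), regulatory T cell (5), CD8 T cell (4), chemokine receptor (12) and costimulatory and inhibitory receptor genes (15) had 0 calls by edgeR. So did those of residency (11), circulation and naive state (14), immediate early and activation (20), cell cycle (18), interferon-stimulated (15), myeloid (14), B cell (3) and hepatocyte genes (10). The type 17 list held Tmem176a and Tmem176b among its tested genes, and Il17a, Il17f and Il22 had 0 UMIs in DN Ly49- cells. At an unadjusted p under 0.05 each of these lists held 0 to 2 genes in either direction, against 222 higher and 255 lower of 10937 genes. In the type 17 list 2 of 4 tested genes were higher and 0 lower. In the regulatory T cell list 2 of 5 were higher and 0 lower. Cell cycle genes in WT DN Ly49- cells rested on few cells, as 1 cell gave 93.3% of the Stmn1 UMIs.

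DN Ly49- cells of the deficient mice were finally set beside those of WT, to see what the same phenotype holds when CD1d-dependent cells are reduced. Each pool is 1 sample, so the ratios have no replicate check. Ccl5 and Tyrobp had higher values in the deficient pools, and Ly6a lower ones, while Ncr1 was at 9.93 CPM in WT and 9.34 CPM in Jα18-deficient cells. Ccl5 was at 3186, 5204 and 11518 CPM, and Tyrobp at 70.4, 243 and 1060 CPM. In the CD1d-deficient pool the 11 cells with an adaptor sum of 10 or more gave 88.3% of the Tyrobp UMIs, and without such cells Tyrobp was at 45.1, 120 and 181 CPM. Tyrobp is part of that sum, so these values follow in part from the choice of cells. As a mean over cells Tyrobp was at 74.2, 295 and 929 CPM, the same order. Ly6a was at 1006, 686 and 276 CPM by that mean.

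Ratios past 2-fold were counted over genes for which the DN Ly49- cells of both pools together held 100 UMIs or more, and which 20% or more of those cells showed in one of the pools. Jα18-deficient over WT, 362 of 4763 genes (7.6%) were higher and 205 (4.3%) lower. CD1d-deficient over WT, 539 of 4366 (12.3%) were higher and 675 (15.5%) lower. Without these limits on detection, 10 of the 12 NK cell genes were over 2-fold higher and 1 lower in CD1d-deficient than in WT DN Ly49- cells, and 4 were higher and 0 lower in Jα18-deficient ones. Without these limits, of the 10937 genes tested by edgeR, 1651 were higher and 3197 lower in CD1d-deficient cells. In Jα18-deficient cells 1353 of the 10937 were higher and 1578 lower.

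The 6 largest increases in Jα18-deficient DN Ly49- cells were Mtmr9, Metrnl, Xkrx, Plppr4, Tmem37 and Ccdc136. Mtmr9, a myotubularin family protein, was at 168 CPM (exact Poisson 95% interval 162 to 174) against 1.99 CPM in WT (1.38 to 2.76), with a log2 ratio of 5.82 and a UMI in 38.6% against 2.57% of thinned cells. It was also higher in the other cells of that pool, at 113 against 3.56 CPM in WT. Xkrx was at 11.6 against 0.227 CPM, with a UMI in 18.4% and 0% of thinned cells. Metrnl rested on 1 cell for 60.5% of its UMIs.

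The 6 largest decreases in Jα18-deficient DN Ly49- cells were Cysltr2, Tyms, Lyz2, Chil3, Lyz1 and Ckap5. In WT 1 cell gave 67.5% of the Tyms UMIs. By the mean over cells the log2 ratio of Tyms was -1.33 in place of -3.04, and that of Ckap5 -1.06 in place of -2.31. After thinning they were -0.82 and -0.27. Cysltr2, a leukotriene receptor, was at 3.18 against 46.3 CPM in WT, and at 1.37 against 25.03 CPM in the other cells. Lyz2 was at 10.96 CPM against 83.0 CPM in WT and 438 CPM in the CD1d-deficient pool. The other cells had 68.9, 15.3 and 643 CPM, the same order of pools.

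In CD1d-deficient DN Ly49- cells the 6 largest increases were Itgax, Tmem37, Ccl4, Ift46, 1110059E24Rik and Cd244. Cd244, an NK receptor, was at 73.9 against 3.06 CPM in WT and had a UMI in 16.7% against 0.368% of thinned cells. In all but Cd244, over 70% of the UMIs came from 1 cell, and for Cd244 it was 52.1%. The 6 largest decreases were Art2a-ps, Nudt18, Dusp7, Mast3, Tmem106b and Zfp36l1. Dusp7, a phosphatase of MAP kinases, was at 1.05 against 46.1 CPM, with a UMI in 0% against 11.4% of thinned cells. Art2a-ps was at 0.35 against 61.8 CPM, and likewise low in the other CD1d-deficient cells at 1.95 against 59.8 CPM. Dusp7 was less far apart in the other cells, at 34.2 against 54.6 CPM. Zfp36l1 alone of the 6 was not lower in the other cells, at 79.8 against 56.7 CPM. It had a UMI in 11.1% of thinned CD1d-deficient and 15.1% of WT DN Ly49- cells.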

How the data were processed

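Liver NK1.1+CD3e+ cells of 3 genotypes were sequenced singly. According to the methods and the submitters' processing notes, the authors trimmed reads with Cutadapt 1.15, aligned them to mm9 with TopHat 2.0.12, removed duplicate UMIs and counted with HTSeq 0.10.0. The deposited values are UMI counts per gene and cell, not normalized, for 24447 genes and 1735 cells. They were checked to be whole numbers, and 0 cells had identical columns. No doublet caller was run, since cells were picked by hand. No column was left unassigned to a pool.

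The DN Ly49- cells and the 22 gene lists were chosen with earlier results of these data known. Cells of a pool and class were summed. DN Ly49- sums held 17622854 UMIs in WT, 16060299 in Jα18-deficient and 2854329 in CD1d-deficient mice, and the other cells 16018635, 43860499 and 10773813. Sums of under 10 cells were not used. Differences were tested with edgeR 4.0.16 in R 4.3.3 (quasi-likelihood test, TMM, filterByExpr, class and pool terms), leaving 2 residual degrees of freedom, or 4 with the neighbour classes. Adjusted p are Benjamini-Hochberg values over all genes tested. The p-values rest on how far the difference between classes varied across pools of different genotypes, after the pool term. Fold sizes per pool are ratios of TMM-scaled CPM plus 1, and ratios between pools use CPM plus 1. On simulated counts for DN Ly49- against other cells (10944 genes, 200 changed), 39.4% of 4-fold and 7.58% of 2-fold changes were recovered, and 1 unchanged gene was called. The simulation gave each gene the same mean and the same change in every pool. Changed genes were drawn from those above a count limit. Real pools differed, so these rates do not measure recovery or false calls in the data.

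Named were the 12 genes with the largest called change in each direction against all other cells, and 5 against each neighbour class, with the same sign in all pools, leaving out the rule's genes, other Klra genes and Cd8b1. Between pools the 6 largest log2 ratios in each direction were named. Genes of the lists could also be named. Shares have exact Clopper-Pearson and CPM exact Poisson 95% intervals, and 0 UMIs allow up to 3. For shares of cells with a UMI each cell was thinned to 10000 UMIs. Alternatives used DESeq2 1.42.0 and limma 3.58.1, other filters, thinned or deeper cells, stricter or looser rules, and left-out pools. Thinned sums with unchanged classes, a Ly49 sum over all Klra genes and other cells without the Cd4-only cells were added after seeing the data. Figures were drawn with matplotlib 3.10.9.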

Additional observations from a re-analysis of the deposited data

How the results depend on the processing

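All 6 genes called lower against all other cells were also called with DESeq2, its size factors, no filter, at least 50 UMIs per pool, each pool left out, thinned cells, cells of at least 40000 UMIs, 0 UMIs of the rule's genes, and with the Ly49 sum widened to all Klra genes. Without a pool term 1 gene was called lower, and it was none of the 6, whose adjusted p were 0.9997 each. With limma on the mean over cells 5 of the 6 were called and Gzmb was not (adjusted p = 0.323). With the Cd4-only cells left out of the others, 4 were called, and Tyrobp (adjusted p = 0.0737) and Cd7 (0.0557) were not.

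Counts of other called genes moved. Against all other cells, 17 were higher and 45 lower with DESeq2, 3 and 21 with no filter, 7 and 21 with every cell thinned, 1 and 15 with 0 UMIs of the rule's genes, and 5 and 17 with thinned cells in unchanged classes. With limma 1 was higher, and with the Cd4-only cells left out 6 were. Leaving out 1 pool gave 5 to 7 higher and 10 to 26 lower.

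Against Cd4-only cells DESeq2 gave 15 higher and 1 lower, no filter gave 6 higher, and leaving out 1 pool gave 0 to 6 higher and 0 to 15 lower. Against Ly49-only cells these were 3 and 16 with DESeq2, 9 and 20 with no filter, and 0 to 11 and 3 to 23 with 1 pool left out. Against S1pr1-only cells they were 273 and 91, 16 and 5, and 1 to 99 and 0 to 145. Leaving out WT or the Jα18-deficient pool left 1 sum of Cd4-only and S1pr1-only cells, assumed to vary like the other classes. The cause was not tested.

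The share of DN Ly49- cells was 27.0%, 4.91% and 4.41% in WT, Jα18-deficient and CD1d-deficient pools with 0 UMIs of the rule's genes, and 59.1% and 38.9% in WT and the Jα18-deficient pool with a value under 1. It was 19.3% in the Jα18-deficient pool with the sum over all Klra genes, and 23.0% in the CD1d-deficient pool among cells of at least 40000 UMIs. By the mean over cells, 108 genes were over 2-fold lower in Jα18-deficient than in WT DN Ly49- cells. After thinning, Metrnl, Tyms and Ckap5 had log2 ratios of 0.70, -0.82 and -0.27.

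No paired analysis was possible because the cell columns carry no library number, so the groups share none. The classes were matched only within each pool, by the pool term. The spread between mice could not be separated from genotype, and the 36 CD1d-deficient cells limit every value of that pool.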
